A study of Canis lupus familiaris with 51 samples.

Results

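The 13 cutaneous mast cell tumors (MCTs) with the highest proliferation score were compared with the 13 with the lowest, among the 39 of 51 canine MCTs in the differentiated class. The score was the mean z value, over the 39, of all 9 probes of CCNB2, NUF2, PRC1 and FOXM1, and the 13 tumors between the groups stayed in the fit as a middle group. The members were thus chosen by measured values of these 4 genes, whose levels are given as a description and were not tested. RNA of each tumor, taken as an aliquot of the center of the mass from a pet dog with spontaneous disease, was hybridized to 1 one-color array, and all tumors share that source, with no normal skin beside them. The class is the study's own and does not stand in the sample labels. It rests on histology for the reference samples and on marker transcripts, the score genes among them, for the other tumors.

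Mast cells are tissue-resident immune cells that carry the receptor tyrosine kinase KIT and the high-affinity IgE receptor and store chymase and histamine in granules. A skin tumor of mast cells also holds fibroblasts with their collagen matrix, vessels, other leukocytes and, depending on how deep it lies, the keratinocytes of epidermis and hair follicles. CCNB2 is a B-type cyclin that drives entry into mitosis, NUF2 holds microtubules at the kinetochore, PRC1 bundles the central spindle, and FOXM1 is the transcription factor that turns on mitotic genes. Their RNA is abundant in dividing cells and scarce in resting ones, so in bulk tissue their level follows the share of cells in cycle.

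The score ran from 1.5 down to 0.517 in the proliferation-high group, with a median of 0.954, and from -0.158 down to -2.20 in the proliferation-low group, with a median of -1.05. The tumor just outside the high group scored 0.364, whereas the tumor just outside the low group scored -0.152, almost the same as the last one inside. The lower limit therefore did not fall at a gap. The brightest CCNB2 probe had a log2 intensity of 9.61 ± 0.37 (SD, n = 13) in the high group and 7.34 ± 0.72 (SD, n = 13) in the low group. The corresponding means were 8.42 and 6.34 for NUF2, 9.04 and 7.04 for PRC1, and 7.86 and 6.23 for FOXM1. On the scale of the 39, the 12 undifferentiated tumors scored between 1.99 and 3.26, above every differentiated tumor, an order to be read with the use of these genes in assigning the class.

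**Figure D1:**
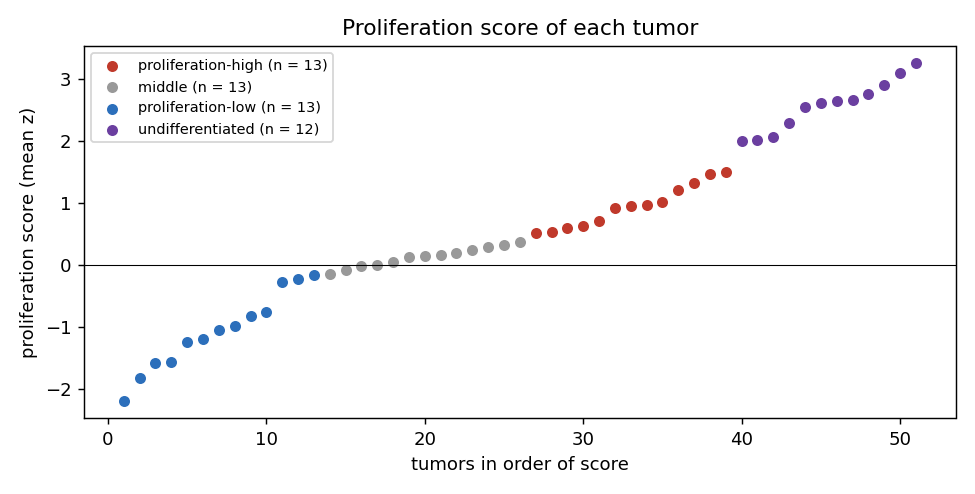
Proliferation score of each of the 51 tumors (y axis, mean z of the 9 probes on the scale of the 39 differentiated tumors), in order of score (x axis). The high group begins at 0.517 and the low group ends at -0.158, while the undifferentiated tumors lie between 1.99 and 3.26.

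Sex, breed, age and sample set were compared between the groups. Of the tumors with a stated sex, 7 of 12 in the high group and 10 of 13 in the low group came from females. There were 3 boxers of 13 and 1 of 13, and 3 Labrador retrievers of 13 and 2 of 13. The median age was 8 years in both groups, with a range of 3 to 13 in the high and 4 to 10 in the low group. Reference samples made up 2 of 13 high and 6 of 13 low tumors. None of these 5 comparisons passed Benjamini-Hochberg adjustment (two-sided Fisher's exact tests and, for age, a two-sided permutation test; adjusted p between 0.988 and 1), which at these sizes does not show that the groups were alike. On each array of the high group 59.4% to 73.2% of the probes were well above background, and 60.5% to 72.1% on those of the low group. Both groups were spread over 9 slides and 7 scan sessions, and 4 slides and 5 sessions held tumors of both.

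Outside the cell cycle, which means here outside the gene lists and description words used for it, 290 of 42893 probes differed between the groups (limma, adjusted p under 0.05), which is 0.676% of those tested. Of these, 180 were higher (0.42%) and 110 lower (0.256%) in the high group, and 120 differed by a fold of at least 2. The share called was 0.312% without T53, a high tumor, and 1.06% without T6, the array on which the fewest probes were well above background. With each array scaled to its 75th percentile and the groups made again, the split was 734 higher and 275 lower. With slide as a fixed block the majority turned, to 700 higher and 816 lower, and with scan session as a fixed block it was 281 and 249. Some of the 290 are probes of cell division genes that neither the lists nor the words held, such as DIAPH3. The higher probes with a gene symbol represent 79 genes and the lower ones 47. The 678 cell cycle probes that were not in the score, set apart by gene lists and words in the probe descriptions, had 98 higher (14.5%) and 0 lower. Among them TOP2A, the topoisomerase that untangles chromosomes in mitosis, had a log2 intensity of 5.33 ± 0.35 against 3.41 ± 0.87 (SD, n = 13 each), with no overlap of the groups. The only probe named MCM2 is described as similar to a cyclin of the L type, so no value is given for that helicase subunit. PCNA, the sliding clamp of DNA polymerases, differed by 0.35 on the log2 scale (adjusted p = 0.121).

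The largest differences outside the cell cycle were those of keratinocyte genes, which were bright in most high and dim in most low tumors. The genes that were lower in the high group included several secreted and matrix proteins, and their differences were smaller. Both kinds are shown here by the probes of 2 genes each, printed from the array files 5′ to 3′ with the coordinates given there. The genome build is not named in those files. KRT10 (chr9:25195305-25195364) and KRT5 (chr27:5576721-5576780) stand for the keratins, and CRTAC1 (chr28:14112554-14112613, listed in reverse order) and CCN5 (chr24:35145819-35145878) for the matrix genes.
KRT10: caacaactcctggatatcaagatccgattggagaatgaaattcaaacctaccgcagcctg
KRT5: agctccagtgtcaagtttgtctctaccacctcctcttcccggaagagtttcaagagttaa
CRTAC1: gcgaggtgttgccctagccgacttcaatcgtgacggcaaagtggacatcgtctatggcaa
CCN5: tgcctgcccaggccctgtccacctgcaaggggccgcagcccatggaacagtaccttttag

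KRT10, the keratin of suprabasal epidermis, showed the largest difference. Its log2 intensity was between 1.60 and 17.05 in the high group with a median of 14.30, and between 1.59 and 15.60 in 12 low tumors with a median of 1.60, which is the floor of the scale. Here and below, tumors missing from a count of 13 had a flagged spot, and the fit left them out for that probe. It was well above background on 10 of 13 high and 3 of 13 low arrays. The groups overlapped over nearly the whole range, since 3 high tumors were at the bottom of it and 1 low tumor near the top. The low tumor without a KRT10 value, T50, was bright for other keratinocyte genes, with a log2 intensity of 16.71 for KRTDAP. The low mean of KRT10 therefore leaves out a tumor of the bright kind. The difference of the means was 9.04 ± 2.21 on the log2 scale (SE, limma, adjusted p = 0.039). KRT5, the keratin of basal keratinocytes, ran from 5.32 to 17.17 (median 15.31) in the high group and from 5.01 to 15.60 (median 6.12) in 12 low tumors. That is a difference of 5.87 ± 1.52 (SE, adjusted p = 0.049) by 1 of the 5 probes with this name, whereas the brightest of the 5 differed by 3.92 (adjusted p = 0.092). T50 had no value for the former probe and 14.90 for the brightest. The gene ID of these probes now carries the name KRT71 in RefSeq, and the name on the array was kept.

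The same picture held for genes of keratinocyte differentiation and of the surface they build. KRTDAP, a secreted protein of differentiating keratinocytes, had a median of 16.04 in the high and 6.01 in the low group, and the difference of means was 6.71 ± 1.74 (SE, adjusted p = 0.049). DAPL1, a protein of early epithelial differentiation, differed by 5.59 ± 1.44 (SE, adjusted p = 0.049). AQP3, the water and glycerol channel of basal keratinocytes, ran from 6.57 to 14.24 in the high group (median 11.25) and from 5.69 to 12.12 in the low group (median 6.62). The difference was 3.60 (adjusted p = 0.041), and 1 of 2 probes of the gene was called. BNC1, a zinc finger protein of stratified epithelium, had medians of 7.22 and 1.86 and differed by 3.36 (adjusted p = 0.022), by 1 of 2 probes. For BNC1, 8 of 13 high tumors lay above all low tumors. Such counts of tumors beyond the other group, for this and the other genes, were not made over all probes. A pair of transcripts chosen after their values were seen, one described as a beta-defensin and one as similar to transglutaminase 3, an enzyme that crosslinks the cornified layer, were higher by 5.46 and 6.83 (adjusted p = 0.047 for both).

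The other genes among the 12 with the largest rise were PPP1R14C, an inhibitor of protein phosphatase 1 (4.51), ARSF, an arylsulfatase (4.4), MBOAT2, a lysophospholipid acyltransferase (4.31), BPIL2, related to bactericidal proteins (3.89), GPX2, the glutathione peroxidase of epithelia (3.66), and SLC15A1, a transporter of small peptides (3.33). Their adjusted p lay between 0.019 for SLC15A1 and 0.049. Of the 3 probes of PPP1R14C, 1 was called. SLC15A1 lay above the median of the 39 in 9 of 13 high and 2 of 12 low tumors, and each of the other 5 in 10 high and 2 low tumors. NRG1, an epidermal growth factor family ligand chosen after its values were seen, differed by 2.11 ± 0.51 (SE, adjusted p = 0.034), with a range of 7.40 to 12.61 in 12 high and of 4.87 to 9.55 in 12 low tumors. It no longer passed without T53 (1.82, adjusted p = 0.068) or with the epidermis level of each tumor as a covariate (1.44, adjusted p = 0.305).

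**Figure D2:**
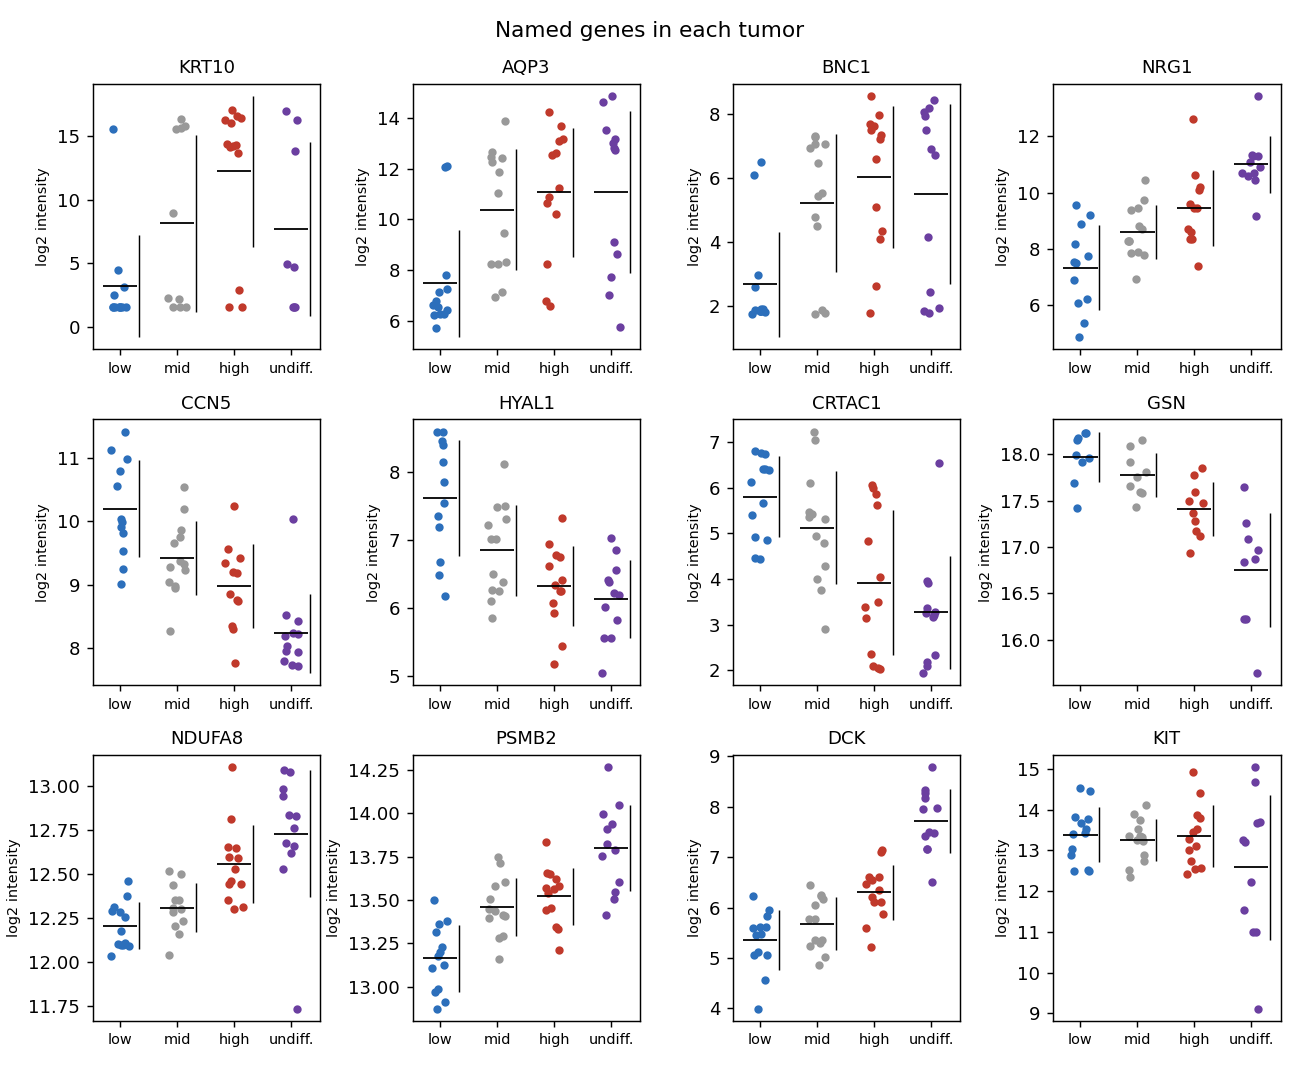
Log2 intensity (y axis) of 12 named genes in each tumor, by group (x axis: low, middle and high proliferation among differentiated tumors, and undifferentiated tumors). Points are tumors, horizontal lines are means and vertical lines span 1 SD to either side. KRT10, AQP3 and BNC1 split the tumors of every group into bright and dim ones, with 10 of 13 high and 2 of 12 low tumors above the median of the 39 for KRT10, while CCN5 and HYAL1 fall and NDUFA8 and PSMB2 rise from low to high.

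The keratinocyte signal split the tumors into an upper and a lower set. The mean log2 intensity of the 24 measured genes of an epidermis list had no tumor between 7.27 and 8.94. It lay above that gap in 10 of 13 high, 7 of 13 middle and 2 of 13 low tumors. The range was 4.64 to 11.45 in the high group (median 9.89) and 4.48 to 10.67 in the low group (median 4.97). Of the 24 genes, 23 were higher in the high group by their brightest probe, with a median difference of 3.91 on the log2 scale, against -0.03 over all 11667 named genes. Of all named genes, 5126 were higher and 6541 lower in the high group, called or not. By the brightest probe 1 of the 24, KRT10, passed the test, where 1.18% of all named genes were called higher. KRT1 (8.36, adjusted p = 0.081), DSG1 (5.56, adjusted p = 0.064), CDSN (4.15, adjusted p = 0.055) and SPINK5 (3.89, adjusted p = 0.131) did not. TP63, the defining transcription factor of basal keratinocytes, was well above background on 2 high and 0 low arrays. In bulk tissue, more cells of a type and more RNA per cell cannot be told apart.

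**Figure D3:**
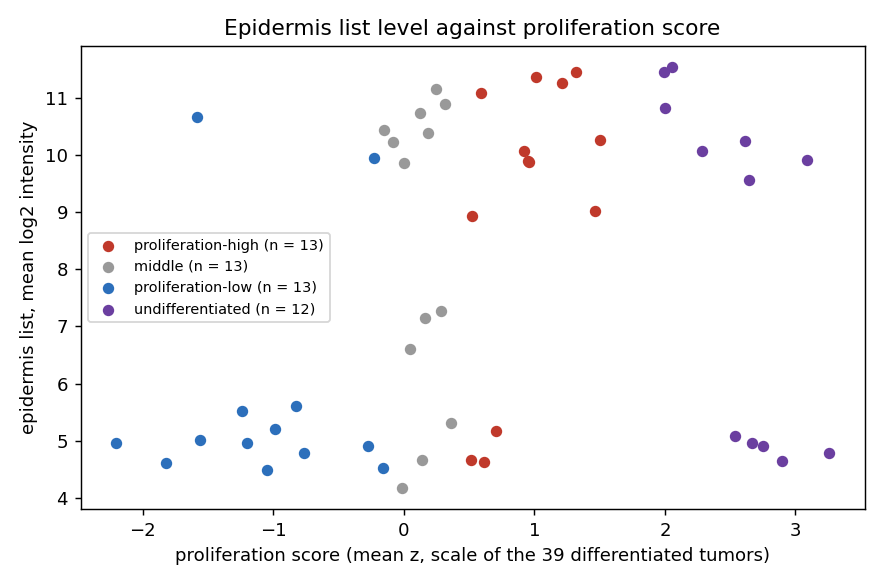
Mean log2 intensity of the 24 epidermis genes (y axis) against the proliferation score on the scale of the 39 (x axis), 1 point per tumor, colored by group. The points form an upper and a lower band with 10 of 13 high and 2 of 13 low tumors in the upper one, and among the undifferentiated tumors the 5 in the lower band score between 2.54 and 3.26.

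The keratinocyte difference held its direction within scan sessions but not its call under every choice. The epidermis level was higher in the high tumors in 5 of 5 sessions that held both groups, by 1.40 to 5.99, and on 4 of 4 such slides, by 0.06 to 5.71. Each of these batches held only 1 to 3 tumors of either group, and slides and sessions share tumors. On the slide with 0.06, the 1 high and the 1 low tumor both lay in the lower band. Without T53, 10 of the 12 genes no longer passed, KRT10 with a difference of 8.87 and an adjusted p of 0.068. When the score left out CCNB2 or PRC1, 2 members changed and 12 of the 12 no longer passed, although each kept its direction. With flagged spots kept, 2 of the 12 no longer passed.

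Among genes that were lower in the high group, the 12 with the largest differences included several secreted or matrix proteins. CCN5, a secreted matricellular protein of fibroblasts and smooth muscle, had a log2 intensity between 7.77 and 10.24 (median 9.01) in 12 high tumors and between 9.01 and 11.41 (median 10.01) in 12 low tumors. Of the high tumors, 6 lay below all low tumors, and the difference was -1.22 ± 0.27 (SE, adjusted p = 0.016). HYAL1, which degrades hyaluronan, ran from 5.18 to 7.31 in the high group and from 6.17 to 8.59 in 12 low tumors, with 8 of 12 low tumors above all high tumors and a difference of -1.29 ± 0.28 (SE, adjusted p = 0.012). CRTAC1, a secreted protein first described in cartilage, was well above background on 5 high and 10 low arrays. It differed by -1.88 (adjusted p = 0.049), and 1 of 3 probes of the gene was called. Probes named SCP2 on the array but described as podocan, a small leucine-rich matrix proteoglycan, differed by -1.46 ± 0.30 (SE, adjusted p = 0.007) in 13 high and 12 low tumors, and 2 of 3 such probes passed. HPSE2, a heparanase homolog that binds heparan sulfate, differed by -1.47 with 2 of 2 probes called, and PKDCC, a secreted kinase of matrix proteins, by -1.38.

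Other genes of the 12 act inside the cell or at its surface. CA15, a carbonic anhydrase, fell by 2.49 (adjusted p = 0.046) and was well above background on 3 high and 10 low arrays. AKAP12, a scaffold for protein kinase A, had medians of 5.67 and 7.76, with 10 of 13 high tumors below all low ones. Its difference was -1.73 (adjusted p = 0.016), and 1 of 3 probes of the gene was called. MYH10, a nonmuscle myosin heavy chain, differed by -1.35, LINGO1, a membrane protein of the Nogo receptor complex, by -1.51, and FAM78B by -1.21. Their adjusted p lay between 0.030 and 0.042. Without T53, 6 of the 12 lower genes no longer passed: CA15, CRTAC1, LINGO1, PKDCC, MYH10 and FAM78B.

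The collagen and fibroblast matrix list had a negative median, without a call by the brightest probe. Of its 44 genes, 36 were lower in the high group, with a median of -0.49, and 0 passed by the brightest probe, where 0.291% of all named genes were called lower. CCN5 passed by another probe of the gene. COL1A1, the main chain of type I collagen, differed by -0.37 ± 0.50 (SE, adjusted p = 0.781) in 10 high and 12 low tumors, and DCN, the proteoglycan decorin, by -0.44 ± 0.14 (SE, adjusted p = 0.114) in 8 high and 10 low tumors. The mean level of the list was lower in the high tumors in 5 of 5 sessions, by 0.09 to 0.96.

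Genes of energy metabolism and protein turnover had small positive differences. Of the 42 genes of oxidative phosphorylation, 35 were higher in the high group, with a median of 0.18, and 4 passed by the brightest probe, where the test called 1.18% of all named genes higher. NDUFA8, a subunit of respiratory complex I, was between 12.30 and 13.11 (median 12.53) in the high and between 12.03 and 12.46 (median 12.18) in the low group. Of the low tumors, 10 of 13 lay below all high tumors, and the difference was 0.35 ± 0.07 (SE, adjusted p = 0.006). NDUFS6, of the same complex, differed by 0.42 (adjusted p = 0.011) and UQCRFS1, the Rieske protein of complex III, by 0.33 (adjusted p = 0.047), which became 0.29 (adjusted p = 0.097) without T53.

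In the proteasome list the difference was positive for 28 of 29 genes, with a median of 0.20, and 1 passed. PSMB2, a subunit of the proteasome core, was between 13.21 and 13.84 in the high and between 12.87 and 13.50 in the low group, with a difference of 0.36 ± 0.07 (SE, adjusted p = 0.006). NDUFA8 and PSMB2 were higher in the high tumors in 5 of 5 sessions and on 4 of 4 slides. RPSA, a ribosomal protein that also serves as a laminin receptor, differed by 0.56 ± 0.11 (SE, adjusted p = 0.006) by 1 of 4 probes, in 12 high and 13 low tumors, while the ribosomal protein list had a median of 0.13 and 0 calls by the brightest probe. RAN, the GTPase of nuclear transport, differed by 0.27 (adjusted p = 0.030), and the splicing factor PRPF3 by -0.44 (adjusted p = 0.049). Without T53 the difference of PRPF3 was -0.39 (adjusted p = 0.098), and with the epidermis covariate neither passed (adjusted p = 0.252 for RAN and 0.419 for PRPF3). DCK, the kinase that salvages deoxycytidine for DNA synthesis, rose by 0.95 ± 0.21 (SE, adjusted p = 0.019), from a median of 5.47 to 6.35.

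With the epidermis level of each tumor as a covariate, 0.249% of the probes outside the cell cycle were called, 78 higher and 29 lower, and 63 of them were among the 290. None of the 12 higher and none of the 12 lower genes passed in that fit. The differences of the 12 higher genes lay between 0.08 and 1.19 and those of the 12 lower genes between -2.26 and -0.66, the last for FAM78B. Whether the sets differ in this was not tested. The difference of KRT10 became 0.57 and that of AQP3 0.67. The covariate is the mean of the epidermis list, to which KRT10 belongs. A fall of KRT10 and of that list's median was therefore built into the fit and is no separate result. CCN5, HYAL1 and CRTAC1 had differences of -1.14, -1.29 and -1.83, with adjusted p of 0.107, 0.059 and 0.174. NDUFA8 (0.28, adjusted p = 0.128) and PSMB2 (0.29, adjusted p = 0.125) no longer passed either. The epidermis list median became 0.02 and that of cholesterol synthesis went from 0.68, with 16 of 18 genes higher and 0 called, to -0.02, whereas the collagen list median went from -0.49 to -0.75.

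**Figure D4:**
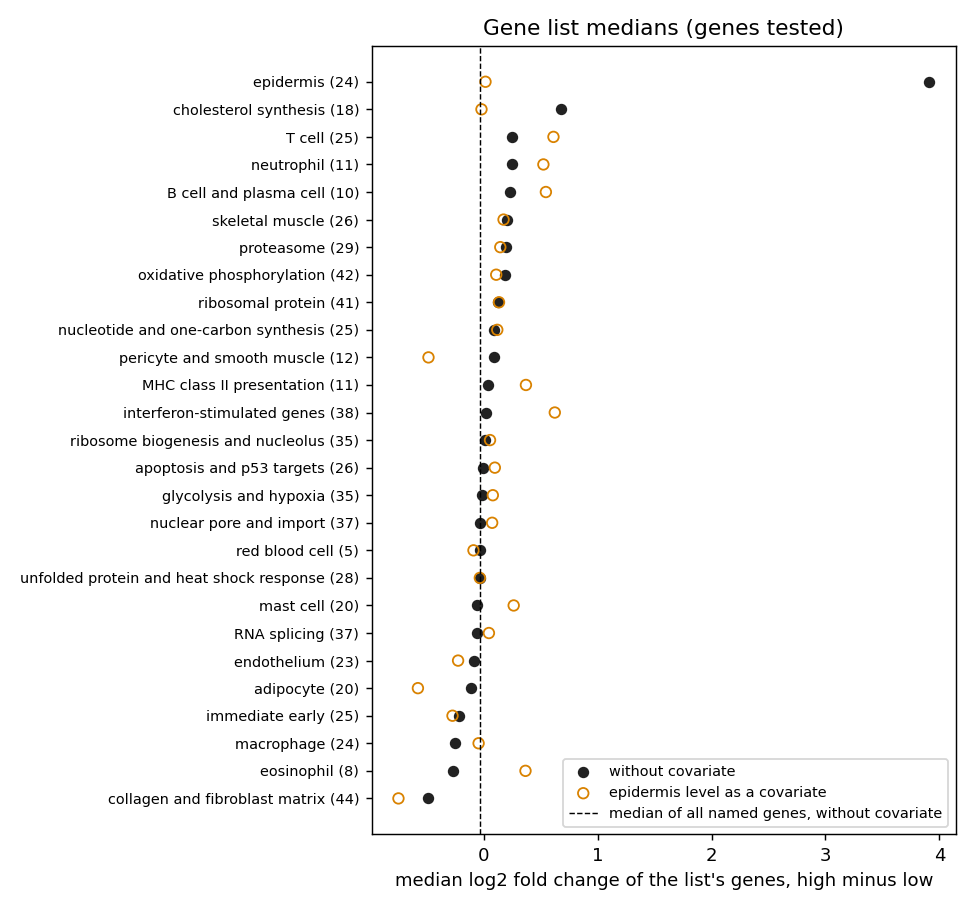
Median log2 fold change of each gene list, high minus low (x axis), without (filled) and with (open) the epidermis level as a covariate, lists in order of the former (y axis, genes tested in parentheses). The epidermis list stands at 3.91 without and at 0.02 with the covariate, a fall built into the fit because the covariate is the mean of this list. The collagen and fibroblast matrix list stands at -0.49 and -0.75, while the dashed line marks the median of all named genes, -0.03.

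Several genes that did pass with the covariate were chosen after their values were seen. Of these, DIAPH3, HASPIN and the transcript described as mitosin are known from cell division although the cell cycle lists did not hold them. DIAPH3, a formin needed for cytokinesis, differed by 1.33 ± 0.17 (SE, adjusted p = 9.65e-07) without the covariate and by 1.37 with it. HASPIN, the kinase that marks histone H3 at mitotic centromeres, differed by 0.87 and 1.12 in 12 high and 12 low tumors, and a transcript described as mitosin, a kinetochore protein, by 2.39 and 2.16. REXO5, an RNA exonuclease, differed by 0.86 and 1.09 and DCK by 0.95 and 1.22. On the lower side GSN, the actin-severing protein gelsolin and 1 of the study's class markers, was between 16.94 and 17.85 in 10 high and between 17.42 and 18.23 in 9 low tumors. The difference of GSN was -0.57 ± 0.13 (SE, adjusted p = 0.025), and with the covariate -0.64 (adjusted p = 0.031), by 1 of 3 probes. Without T53 it was -0.51 (adjusted p = 0.054).

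No difference of mast cell genes was detected by the test. Of 20 genes, 0 passed, where the test called 1.18% of all named genes higher and 0.291% lower, so that no call among 20 is near this background. Of the 20, 7 were higher and 13 lower, with a median of -0.06, where 5126 of all 11667 named genes were higher and 6541 lower. KIT was between 12.42 and 14.93 in the high and between 12.50 and 14.53 in the low group, a difference of -0.03 ± 0.25 (SE, adjusted p = 0.971). MS4A2, the beta chain of the IgE receptor, differed by -0.05 ± 0.26 (SE, adjusted p = 0.952) in 10 high and 13 low tumors, and its alpha chain FCER1A by -0.16 ± 0.18 (SE, adjusted p = 0.716) in 11 high and 12 low tumors. The chymase CMA1 differed by 0.19 ± 0.33 (SE, adjusted p = 0.835) in 8 high and 11 low tumors. All 4 were well above background on every array of both groups.

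The lists of other cell types had 0 calls each, near the same background share for lists of this size. Medians were 0.25 for T cells, with 20 of 25 genes higher, 0.23 for B and plasma cells, -0.25 for macrophages, with 21 of 24 genes lower, -0.09 for endothelium, -0.11 for adipocytes and 0.21 for skeletal muscle. The mean level of the T cell list was between 5.34 and 7.64 in the high and between 5.18 and 6.87 in the low group. That of the macrophage list was between 9.36 and 11.85 in the high and between 10.18 and 11.68 in the low group. The medians were -0.02 for glycolysis and hypoxia, -0.03 for the unfolded protein and heat shock response and -0.22 for immediate early genes, of which 17 of 25 were lower. Beside these counts, 6541 of all 11667 named genes were lower.

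Taken as a number over the 39, the score was related to 552 probes outside the cell cycle (1.29%), 394 of them positively (0.918%), and 229 of the 290 were among them. In the 12 undifferentiated tumors, with the score made again over these 12, limma called 0 of 43593 probes (0%), with 4306 at an unadjusted p under 0.05. Of the 180 higher probes 68 had a positive slope there, where 59.3% of all probes did, and of the 110 lower probes 37 had a negative one. The 24 epidermis genes had a median slope of -2.73 per unit of score among the 12, with 1 of 24 positive. The median slope was -0.11 for oxidative phosphorylation, with 7 of 42 genes positive, and -0.08 for the proteasome list, with 9 of 29 positive. Both lists had positive medians in the comparison of the high and low groups. For the collagen and fibroblast matrix list it was -0.04, with 20 of 44 positive. Of all 11667 named genes, 6483 had a positive slope. The epidermis level correlated with the score at r = 0.522 (rho = 0.481) over the 39 and at r = -0.683 (rho = -0.79) over the 12, given as a description, since the levels form separate bands. In a fit over the 51 tumors the slope on the score differed between the classes for 1260 probes outside the cell cycle (2.94%), and for 369 (0.86%) without the undifferentiated tumor LM0.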

How the data were processed

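The deposited files hold, per the file headers, the intensity of each spot after Agilent Feature Extraction had subtracted the background, with no scaling between arrays and with control and flagged spots included. The authors also deposited a quantile-normalized table of intensities, used here as an alternative. Here log2 values of the processed signal were quantile-normalized across all 51 arrays. Control spots were dropped, values of spots flagged as outliers were treated as missing, and repeated spots were averaged to 43603 probes. The 39 tumors entered limma 3.58.1 (R 4.3.3) as 3 groups of 13, with Benjamini-Hochberg adjustment over all probes and a limit of 0.05. The steps were tested on simulated data. Fold changes are differences of mean log2 values. Symbols came from the array files or, by gene ID, from RefSeq, and 64 probes whose name on the array differs from RefSeq kept the former. MKI67, CDK1, KRT14, CPA3 and HDC are named by no probe.

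Named genes were the 12 genes outside the cell cycle with the largest called difference in each direction, with a symbol and detected above background on 7 or more of the 13 arrays of the brighter group, 1 probe per gene by the smallest p, of which 1 is not reported here. To these were added up to 3 called genes per list and fixed mast cell, keratin and proliferation genes. A list has 1 probe per gene, the brightest, and is described by counts and median. Counts of tumors beyond the range of the other group describe single genes, most of them picked by their difference. The share of all probes with such a separation was not computed. The members and lists were chosen with earlier results of these data known. p-values measure the spread between tumors of different dogs, and the number of arrays limits the precision. Alternatives were other normalizations, background correction, filters, blocks, covariates, group sizes, scores, samples and tests. Single-sample leave-outs and the comparison of classes were added after seeing the data.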

Additional observations from a re-analysis of the deposited data

Results flagged for a closer look

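The slope of expression on the proliferation score differed between the 39 differentiated and the 12 undifferentiated tumors (limma with an interaction term over the 51 tumors, score on the scale of the 39, adjusted p under 0.05) for 1260 probes outside the cell cycle, which is 2.94% of those tested. Among them were 11 of the 24 epidermis genes by their brightest probe. The difference in slope, undifferentiated minus differentiated, in log2 units per unit of score, was -18.11 for KRT1, -17.56 for KRT10, -11.08 for KRTDAP, -10.94 for KRT5, -10.18 for DSG1 and -7.15 for CDSN. It was -7.69 for ARSF, -7.69 for BPIL2, -7.01 for GPX2, -6.16 for AQP3 and -6.0 for BNC1, as well as -10.89 for the transcript similar to transglutaminase 3 (TC67050) and -10.19 for that described as a beta-defensin (ENSCAFT00000038528). Flagged spots left KRT10 with values in 8 of the 12. The missing tumors, T90, T104, T114 and T132, had high epidermis levels, between 9.91 and 11.46. KRT1 had no value for T90, which scored 3.09. The slopes of these 2 genes among the 12 thus leave out tumors of the upper band. In the 12, the 5 tumors with a low epidermis level were LM0, T57, T9, T49 and T115, which scored between 2.54 and 3.26, while the 7 with a high level scored between 1.99 and 3.09. Without LM0, the tumor with the highest score, whose class was inferred by elimination from the study's case list, the count fell to 369 and none of the 13 named above passed, with adjusted p between 0.065 and 0.162, although each kept its sign. Why the slopes differ was not tested.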

How the results depend on the processing

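Of the probes outside the cell cycle 0.676% were called, and this share moved with most choices, for which the cause was not tested. It was 0.42% after scaling to the 75th percentile and 2.35% when the groups were then made again, with 4 tumors changed. Slide gave 2% as a random block and 3.53% as a fixed block, and scan session as a fixed block 1.24%. With a covariate it was 0.366% for sex, in a fit that also left out T53, which has no stated sex, 1.04% for reference or unknown sample and 0.249% for the epidermis level. It was 0.268% in a fit of the 26 tumors alone, 1.07% for the top 10 against the bottom 10 and 0.0909% for the top 19 against the other 20. The score as the mean of the 4 genes gave 0.175%, without CCNB2 0.315%, without PRC1 0.359%, from CCNA2, TOP2A and TPX2 0.249% and as a number 1.29%. The study set its limits of false discovery rate and fold with another method, SAM, for its reference samples. Limits of that size used here in limma, an adjusted p below 0.01 with a 2-fold change, left 0.0863%. An unpaired t-test of the 26 tumors gave 0.259% after adjustment, and 1.37% with a 2-fold change at an unadjusted p below 0.01. Without T53 the share was 0.312% and without T6, the array on which the fewest probes were well above background, 1.06%. Under the other alternatives, such as normexp background correction and the authors' table, it was between 0.525% and 0.898%, except for a filter on dim probes, with 377 of 30514 probes called (1.24%).

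The 12 higher and 12 lower genes kept their direction in all 29 alternatives that gave them a value. CCN5 and the probe named SCP2 passed in 26 of them, HYAL1 in 25, NDUFA8 in 27 and PSMB2 in 25, against 16 for KRT10, 11 for KRT5, 17 for NRG1, 12 for UQCRFS1, 16 for PRPF3 and 14 for RAN. These alternatives are not independent, and some repeat another fit. The score without NUF2 changed 0 members and called the same 290 probes as the main fit. Making the groups again from the authors' table also changed 0 members. The medians of the epidermis, matrix, cholesterol, oxidative phosphorylation, proteasome, ribosomal protein, mast cell and T cell lists moved by less than 1 SD between tumors under the other scaling, the authors' table, the dim filter, the score as a number, the mean over probes and without T53 or T6. With the epidermis level as a covariate the epidermis median went from 3.91 to 0.02, a fall built into the fit because the covariate is the mean of this list. In the 12 undifferentiated tumors 0 probes were called by either score or without LM0, and the share that differed between classes fell from 2.94% to 0.86% without LM0. No paired analysis was possible because each tumor came from another dog and the replicate numbers only name the samples. Levels of probes near background are set largely by the background, so that the sizes given for KRT10, DAPL1 or CA15 depend on the floor of the scale.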
